A study of Homo sapiens with 12 samples.

Results

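BMF and 9 further genes of the BCL2 family were followed in DLD1, an established line from a human colon adenocarcinoma. The 10 genes were chosen by symbol: 6 BH3-only genes (BMF, BCL2L11, BBC3, PMAIP1, BIK and BID), 2 effectors (BAX and BAK1) and 2 pro-survival genes (MCL1 and BCL2L1). They are 10 of the 26485 gene symbols counted, and all 10 were among the 13619 genes with enough reads to be tested. BMF was picked because of its higher level with TCDD, and the other members were set beside it with results of that treatment known. Every TCDD value of a member is therefore given as a description, with no test. The members were tested with the other 2 compounds, and tests with TCDD are given for genes outside the 10. The lists of those genes were also chosen with earlier results of these data known. Their tests and counts, with CH as with TCDD, may not be independent of that choice.

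Poly(A) RNA was sequenced after 1 h in 4 groups of 3 libraries. The cells received 10 µM TCDD, 10 µM Kyn (kynurenine), 10 µM CH (CH223191) or the vehicle DMSO. All 3 compounds are ligands of AHR, the aryl hydrocarbon receptor, which enters the nucleus and drives transcription once an agonist is bound. TCDD is a dioxin and a potent agonist, kynurenine a weaker agonist made from tryptophan in the body, and CH223191 a synthetic antagonist. All libraries come from 1 cell line. Nothing in the labels tells whether a group's 3 libraries were separate cultures, and the p-values then measure only the spread between these libraries, which may be technical.

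BCL2 family proteins set the threshold of mitochondrial apoptosis. Pro-survival proteins such as MCL1 and BCL-XL, the product of BCL2L1, hold the effectors BAX and BAK in check at the outer mitochondrial membrane, and once released the effectors form pores through which cytochrome c leaves. BH3-only proteins start the process by binding the pro-survival proteins or the effectors directly. Each BH3-only gene answers to its own signals, so that transcription of single members is one way in which stress reaches the pathway. In the intestinal epithelium the balance is known for governing the death of cells that lose contact with the matrix or meet DNA damage.

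Depth was 21397703 to 28247146 counted reads per library (median 26666641). CYP1A1, the standard AHR target gene, checked the treatments: it reached 409 to 438 CPM (counts scaled to the same library size) with TCDD, 9.16 to 11.2 CPM with Kyn and 0.396 to 0.736 CPM with CH, against 3.05 to 3.30 CPM in DMSO. AHR itself had a mean of 182 CPM with TCDD, 193 CPM with Kyn and 193 CPM with CH, against 195 CPM in DMSO. Of 10 colon epithelium markers, KRT8, KRT18, EPCAM, CDH1, CDX2 and LGR5 had means of 95.9 to 4642 CPM. The other 4 were low, KRT20 at 3.21 CPM, VIL1 at 2.48 CPM, CEACAM5 at 0.112 CPM and CDX1 at 0.0476 CPM. The summed level of 6 fibroblast markers was at most 1.26 CPM, that of 5 endothelial markers at most 1.69 CPM and that of 6 immune markers at most 16.5 CPM in any library, with the fibroblast marker DCN and the endothelial marker KDR at 0. Less RNA per cell and fewer cells with a transcript cannot be told apart in such bulk samples.

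The promoters of BMF and PMAIP1 are shown because BMF was the member that stood apart with TCDD and PMAIP1 the one whose rise with CH had the smallest p. The RefSeq table, on build GRCh38, matched 8 of the 10 members with 14 promoter entries (all but BIK and MCL1). Both sequences below give the 250 bases before the transcription start, read 5′ to 3′ along the gene. In BMF, chr15:40108880-40109129 on the minus strand, the capitals mark GCGTG, the core bound by AHR with its partner ARNT, whose first base lies 60 bases before the start. The other BMF entry, chr15:40106967-40107216 on the minus strand, holds 0 matches to GCGTG. In PMAIP1, chr18:59899746-59899995 on the plus strand, the capitals mark the reverse complement of TGACGT, the core of the cyclic AMP response element, 56 bases before the start.
BMF: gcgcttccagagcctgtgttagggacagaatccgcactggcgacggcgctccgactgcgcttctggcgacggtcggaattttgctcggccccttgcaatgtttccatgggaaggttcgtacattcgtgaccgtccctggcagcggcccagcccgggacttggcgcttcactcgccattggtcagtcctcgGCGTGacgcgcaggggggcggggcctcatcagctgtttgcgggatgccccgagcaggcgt
PMAIP1: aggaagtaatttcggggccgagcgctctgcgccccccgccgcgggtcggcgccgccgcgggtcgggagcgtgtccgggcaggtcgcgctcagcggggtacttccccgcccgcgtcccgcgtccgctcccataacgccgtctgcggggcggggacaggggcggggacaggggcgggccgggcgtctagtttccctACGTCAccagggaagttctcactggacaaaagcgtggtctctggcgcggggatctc

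GCGTG, searched on both strands, occurred in 32.2% of 35114 promoters of this length and in 6 of the 14 member entries: 1 of 2 entries of BMF, 1 of 2 of BCL2L1, 2 of 5 of BID, and the single entries of BCL2L11 and PMAIP1. PMAIP1 thus also held it, at 183 and 25 bases before its start. The 2 BID matches are a single genomic site in overlapping entries, 38 and 12 bases before their starts. TGACGT occurred in 7.10% of all promoters and in 1 member entry, that of PMAIP1. TGATGNAA, the C/EBP-ATF response element, occurred in 3.14% of all promoters and in 0 of the 14 entries. The matches in the 2 printed promoters did not overlap one another, and they describe letters in this window only.

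Among the BH3-only genes, BMF was the scarcest and had the widest spread between groups. BMF encodes a BH3-only protein that is tethered to myosin V motors on the actin cytoskeleton through dynein light chain 2 and is freed when cells detach. The gene lies on chr15:40087890-40108892 of hg38, minus strand. It had 86, 87 and 92 reads with TCDD, 26, 28 and 35 with Kyn and 31, 33 and 24 with CH, against 33, 30 and 32 in DMSO. These reads came to 3.50, 3.80 and 3.78 CPM with TCDD, 0.926, 1.05 and 1.41 CPM with Kyn and 1.12, 1.18 and 1.10 CPM with CH, against 1.26, 1.09 and 1.18 CPM in DMSO. All 3 TCDD libraries lay above the 9 others, which overlapped one another.

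Against DMSO the TCDD level was 3.14-fold, a log2 fold change of 1.65 ± 0.174 (SE, 95% interval 1.30 to 2.01). The same measure was 1.72 ± 0.176 against Kyn and 1.70 ± 0.177 against CH. Of the 13619 genes tested, 14 had a larger log2 fold change with TCDD against DMSO than BMF. The value moved between 1.60 and 1.70 when each library was left out in turn. BMF was chosen for its level with TCDD, and the interval, the rank and this range do not allow for that choice. BMF had at least 24 reads in every library, so it passed the low-count filter in all 4 groups, although its depth was the lowest of the 10 members.

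With the other compounds BMF did not pass the test, by edgeR's quasi-likelihood test with Benjamini-Hochberg adjustment over all genes. Kyn against DMSO gave a log2 fold change of -0.06, with a 95% interval of -0.50 to 0.37 (adjusted p = 0.995). CH against DMSO gave -0.05, with an interval of -0.48 to 0.39 (adjusted p = 0.896). At 24 to 35 reads per library, a change within these intervals remains possible. The smallest change that the test would have called was not determined and may lie beyond them. The adjoining genes that were tested, SRP14 at 48.7 kb and BUB1B at 52.1 kb, had log2 fold changes with TCDD of 0.02 (adjusted p = 0.810) and 0.15 (adjusted p = 0.0133). An antisense transcript, BMF-AS1, covers 8.46% of the BMF exons on the opposite strand, and its symbol is not among those counted. Whether its reads were counted for BMF was not tested.

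**Figure D1:**
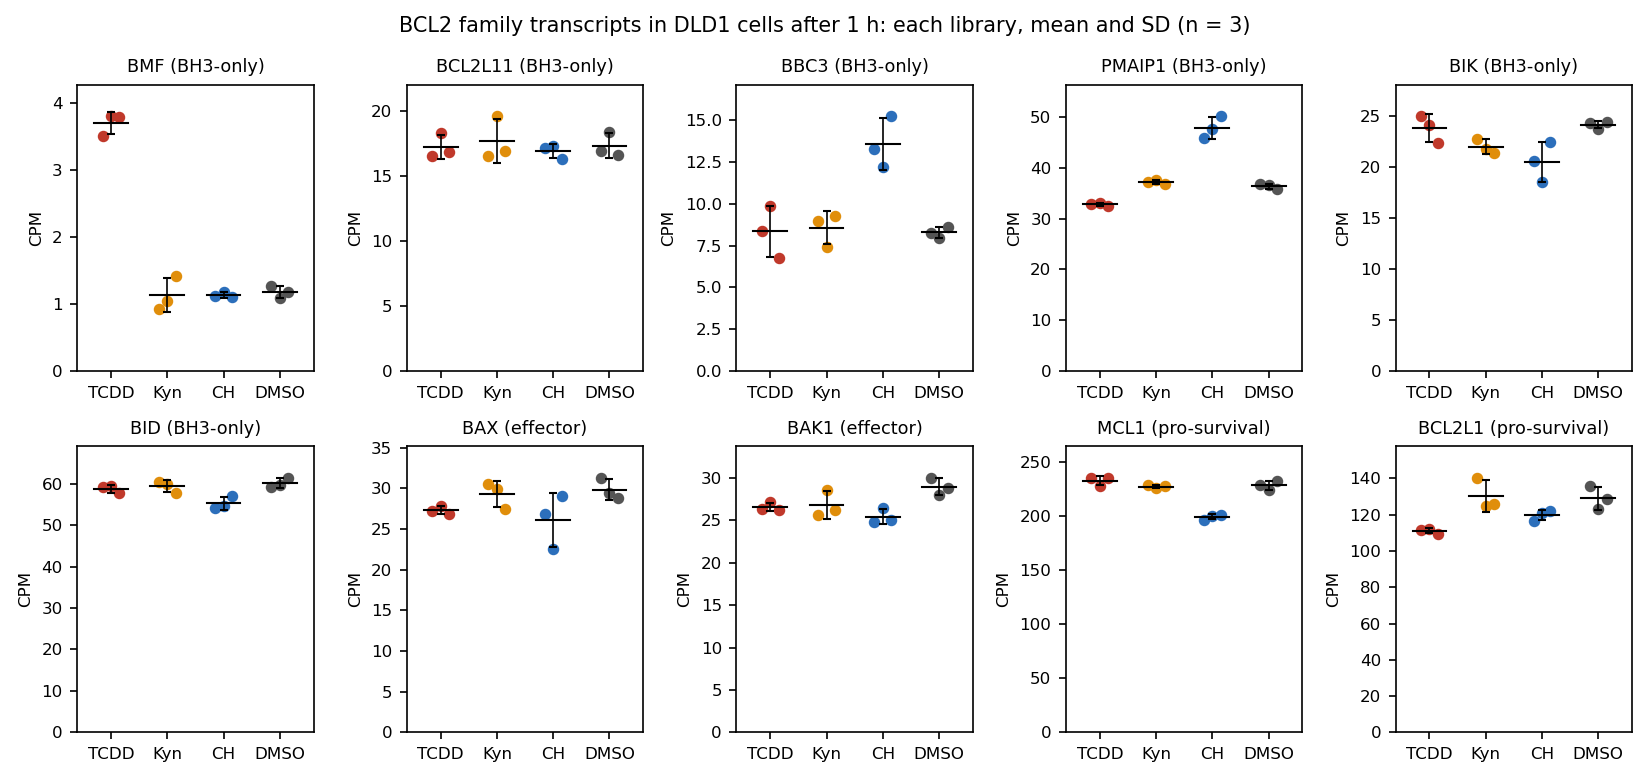
Level of each of the 10 genes in CPM (vertical axes from 0, a scale per gene) in every library of the TCDD, Kyn, CH and DMSO groups, with the mean as a horizontal bar and the SD as a whisker (n = 3). BMF stands at 3.50 to 3.80 CPM with TCDD and at 0.926 to 1.41 CPM elsewhere, whereas BBC3 and PMAIP1 are highest in the CH libraries.

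BBC3 and PMAIP1, the genes of PUMA and NOXA, rose with CH and were the only members to do so. BBC3 encodes a BH3-only protein that binds every pro-survival protein, and the product of PMAIP1 binds mainly MCL1. BBC3 (chr19:47220822-47232766, minus strand) had 13.3, 12.2 and 15.2 CPM with CH, 8.94, 7.44 and 9.29 CPM with Kyn and 8.38, 9.86 and 6.78 CPM with TCDD, against 8.28, 7.96 and 8.63 CPM in DMSO. The CH libraries lay above all others, and those of TCDD, Kyn and DMSO overlapped. The rise was 1.63-fold against DMSO, a log2 fold change of 0.70 ± 0.102 (SE, adjusted p = 1.41e-06), and 0.66 ± 0.102 against Kyn (adjusted p = 4.30e-06).

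PMAIP1 (chr18:59899996-59904305, plus strand) had 45.9, 47.7 and 50.2 CPM with CH, against 36.8, 36.7 and 35.9 CPM in DMSO. In the Kyn libraries it had 37.3, 37.7 and 36.9 CPM, and in the TCDD libraries 32.9, 33.0 and 32.5 CPM. No group overlapped its neighbour in the order CH, Kyn, DMSO, TCDD, although the step between Kyn and DMSO was a log2 fold change of 0.03 that did not pass the test (adjusted p = 0.951). The rise with CH was 1.31-fold against DMSO, a log2 fold change of 0.39 ± 0.0457 (adjusted p = 1.80e-08), and 0.36 ± 0.0457 against Kyn (adjusted p = 1.21e-07). With TCDD the log2 fold change against DMSO was -0.15 ± 0.0482. Leaving out any 1 library ended neither gene's CH calls (highest adjusted p 1.50e-04, for BBC3 against Kyn).

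BIK, whose protein sits at the endoplasmic reticulum, fell with CH. BIK (chr22:43110750-43129712, plus strand) had 20.6, 18.5 and 22.4 CPM with CH, against 24.3, 23.7 and 24.4 CPM in DMSO, with no overlap. Its log2 fold change was -0.24 ± 0.0624 (adjusted p = 2.60e-03), and it was no longer called without CH library 2 (-0.17, adjusted p = 0.0616). Kyn also had lower BIK values than DMSO in every library, 22.8, 21.7 and 21.4 CPM, but the difference of -0.14 on the log2 scale did not pass the test (adjusted p = 0.677). In the TCDD libraries BIK had 24.9, 24.1 and 22.3 CPM, which overlapped both Kyn and DMSO.

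BID, which caspase-8 cuts to carry a death receptor signal to mitochondria, averaged 55.2 CPM with CH, against 60.0 CPM in DMSO. The log2 fold change was -0.12 ± 0.0416 (adjusted p = 0.0216). It was no longer called without DMSO library 3 (adjusted p = 0.0905), CH library 1 (0.0896) or CH library 2 (0.0831), nor with all libraries scaled by their totals alone (-0.10, adjusted p = 0.0691). BCL2L11, the gene of BIM, which binds all pro-survival proteins and can activate BAX and BAK directly, was called in no test. It averaged 17.2 ± 0.923 CPM with TCDD, 17.7 ± 1.67 CPM with Kyn and 16.9 ± 0.529 CPM with CH, against 17.3 ± 0.958 CPM in DMSO (SD, n = 3 libraries each), and the 4 groups overlapped. Its log2 fold change was 0.03 with Kyn (95% interval -0.11 to 0.17, adjusted p = 0.983) and -0.03 with CH (-0.17 to 0.11, adjusted p = 0.784).

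BAX and BAK1 encode the pore-forming effectors, and both passed the test with CH in the lower direction. BAX (chr19:48954815-48961798, plus strand) had 26.8, 22.5 and 29.1 CPM with CH, against 31.3, 29.4 and 28.8 CPM in DMSO. The CH libraries were spread widely and the highest of them overlapped DMSO. The log2 fold change was -0.20 ± 0.064 (adjusted p = 0.0158), and the call ended without CH library 2 (-0.10, adjusted p = 0.277) and without DMSO library 1 (-0.16, adjusted p = 0.0857). BAK1 (chr6:33572547-33580293, minus strand) had 24.8, 26.4 and 25.1 CPM with CH, against 30.0, 28.0 and 28.8 CPM in DMSO, with no overlap. Its log2 fold change was -0.19 ± 0.0545 (adjusted p = 8.29e-03), and the adjusted p was 0.0516 without DMSO library 1. With TCDD both effectors had values below those of DMSO in every library, with log2 fold changes of -0.13 ± 0.0642 for BAX and -0.12 ± 0.0547 for BAK1.

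Of the pro-survival genes, MCL1 fell with CH in every library, while BCL2L1 was called by a narrow margin. MCL1, whose protein is short-lived and so depends on continued transcription, lies on chr1:150560895-150579738, minus strand. It had 197, 201 and 202 CPM with CH, against 229, 225 and 233 CPM in DMSO. Values in the TCDD libraries were 236, 228 and 235 CPM and in the Kyn libraries 229, 226 and 228 CPM, so that the CH libraries lay below the 9 others. The log2 fold change with CH was -0.20 ± 0.0322 against DMSO (adjusted p = 9.62e-06) and -0.19 ± 0.0322 against Kyn (adjusted p = 1.91e-05). Neither call was lost in any fit that omitted 1 library.

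BCL2L1 (chr20:31664452-31723989, minus strand) differed most from DMSO with TCDD. It had 112, 112 and 109 CPM with TCDD, 140, 125 and 126 CPM with Kyn and 117, 121 and 122 CPM with CH, against 136, 123 and 128 CPM in DMSO. The TCDD libraries were the lowest, those of CH lay between them and the overlapping Kyn and DMSO libraries. The log2 fold change with TCDD was -0.22 ± 0.0420. With CH it was -0.11 ± 0.0416 against DMSO (adjusted p = 0.0468), a call lost in 9 of the 12 fits that omitted 1 library (adjusted p up to 0.255, without DMSO library 1). With all libraries it was also lost with library totals (adjusted p = 0.130), with the filter of at least 5 CPM (0.0758) and with DESeq2 (0.0677). ABALON, an RNA on the opposite strand that covers 41.3% of the BCL2L1 exons, had 3.08 CPM with TCDD, 3.50 CPM with Kyn and 3.16 CPM with CH, against 3.78 CPM in DMSO. Its differences from DMSO did not pass with TCDD (adjusted p = 0.170), Kyn (0.938) or CH (0.133). The sources used here do not give the strand setting of the counting.

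Counted over the family, 8 of the 10 genes were called with CH against DMSO, 2 higher and 6 lower, where 32.8% of all genes tested were called, 15.9% higher and 16.9% lower. The libraries of 7 members did not overlap between CH and DMSO, as was so for 43.4% of all genes. The median log2 fold change of the 10 was -0.11, beside 0.00 over all genes. The count was 4 without CH library 2, with 2 higher and 2 lower, where 3510 of 13752 genes were called. It was 5 without DMSO library 1, where 3719 of 13802 were. Against Kyn, CH gave 6 calls, 2 higher (BBC3 and PMAIP1) and 4 lower (MCL1, BCL2L1, BAX and BID), where 33% of all genes were called, 16.4% higher and 16.6% lower. That count was 3 without Kyn library 1, where 4134 of 13768 genes were called. It was also 3 when libraries were scaled by their totals alone, where 4513 of 13619 were. Scaling by totals left MCL1 as the member called lower. DESeq2 gave 4, without BAX (adjusted p = 0.0638) and BID (0.0597), where 3901 of 13619 genes were called. BIK and BAK1 did not pass between CH and Kyn (adjusted p = 0.202 and 0.319).

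Kyn against DMSO gave 0 calls among the 10 members by edgeR, where 0.294% of all genes were called, 0.154% higher and 0.14% lower. DESeq2 also gave 0, but it returned no adjusted p for BMF, so its count does not cover that gene. The libraries of 2 members, PMAIP1 and BIK, did not overlap, as was so for 11.4% of all genes. At an unadjusted p under 0.05 there were 2, BIK (-0.14) and BAK1 (-0.11). The largest absolute log2 fold change of a member was 0.14, and the median was -0.01 beside -0.0030 over all genes. The Kyn and CH comparisons share the DMSO libraries with the TCDD comparison. In the last, whose values entered the choice of members, the libraries of 5 members did not overlap, beside 27.8% of all genes, and nothing is read from that count.

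**Figure D2:**
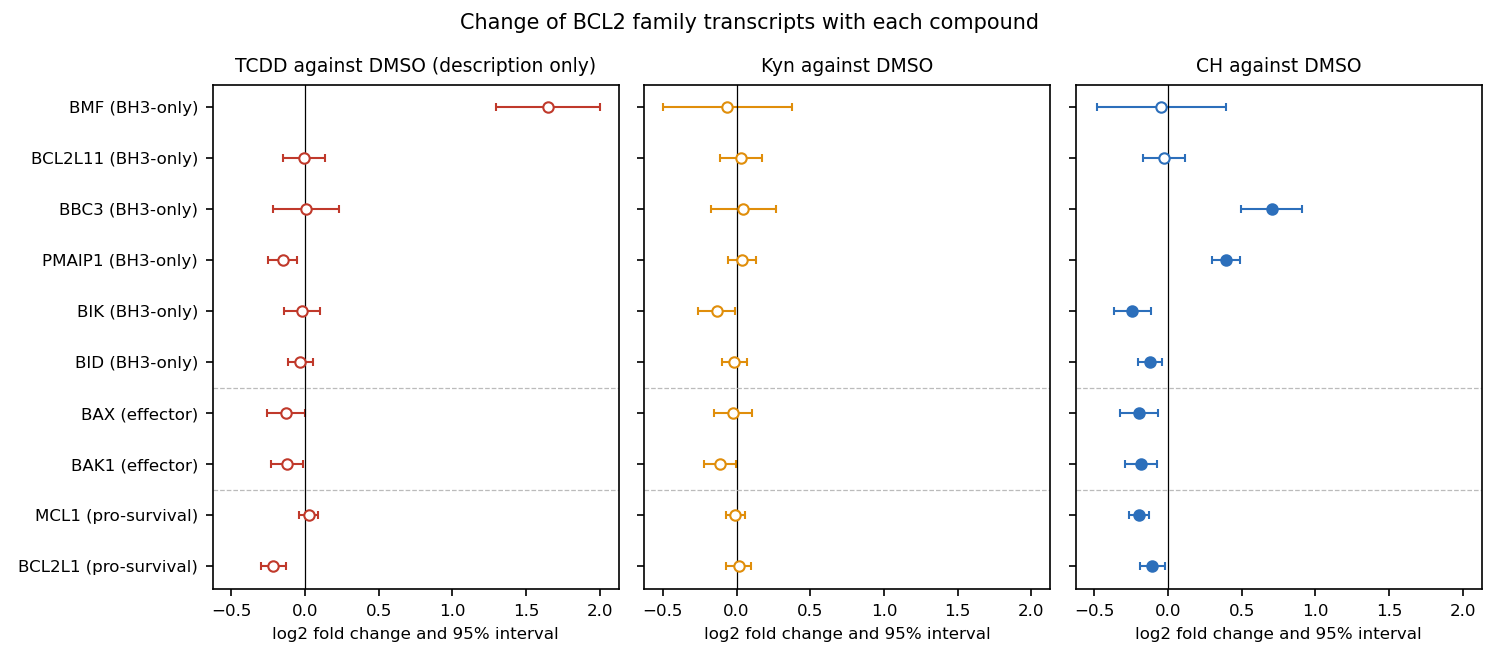
Log2 fold change of each member against DMSO (horizontal axes) with its 95% interval, for TCDD, Kyn and CH, ordered by role. Filled points passed an adjusted p of 0.05 in the tests with Kyn or CH, and the TCDD points are open because they are a description: BMF lies at 1.65 with TCDD, and BBC3 and PMAIP1 at 0.70 and 0.39 with CH.

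Between genes, levels were compared as CPM per kb of exon, with merged exon lengths from GENCODE 44. In DMSO, MCL1 (36.8 ± 0.670) and BCL2L1 (30.7 ± 1.50) were the highest of the 10 in CPM per kb. BIK followed at 25.4 ± 0.388, then PMAIP1 at 16.7 ± 0.227, BID at 13.6 ± 0.266, BAK1 at 13.1 ± 0.455 and BAX at 11.5 ± 0.505 CPM per kb. BBC3 (2.60 ± 0.105) and BCL2L11 (2.57 ± 0.142) were far lower and overlapped. BMF was the lowest at 0.678 ± 0.0306 CPM per kb with TCDD, against 0.215 ± 0.0160 in DMSO, and so stayed below every other member in both groups.

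As a share of the summed CPM per kb of the 6 BH3-only genes, BMF made up 1.15 ± 0.0802% with TCDD, 0.352 ± 0.0849% with Kyn and 0.331 ± 0.0279% with CH, against 0.353 ± 0.0249% in DMSO. PMAIP1 made up 34.9 ± 1.19% with CH, against 27.3 ± 0.500% in DMSO, and BBC3 6.75 ± 0.403% with CH, against 4.26 ± 0.148% in DMSO. BIK made up 34.2 ± 1.66% with CH, against 41.6 ± 0.397% in DMSO. The summed BH3-only level was 59.2 ± 2.15 CPM per kb with TCDD, 59.1 ± 0.978 with Kyn and 62.9 ± 3.47 with CH, against 61.0 ± 0.367 in DMSO. That of MCL1 and BCL2L1 was 63.9 ± 0.551 CPM per kb with TCDD, 67.6 ± 2.24 with Kyn and 60.7 ± 1.08 with CH, against 67.5 ± 1.91 in DMSO. With the longest transcript as length, BID and BAX had 24.1 and 22.0 CPM per kb in DMSO and so moved next to BIK, while BMF stayed lowest at 0.250.

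**Figure D3:**
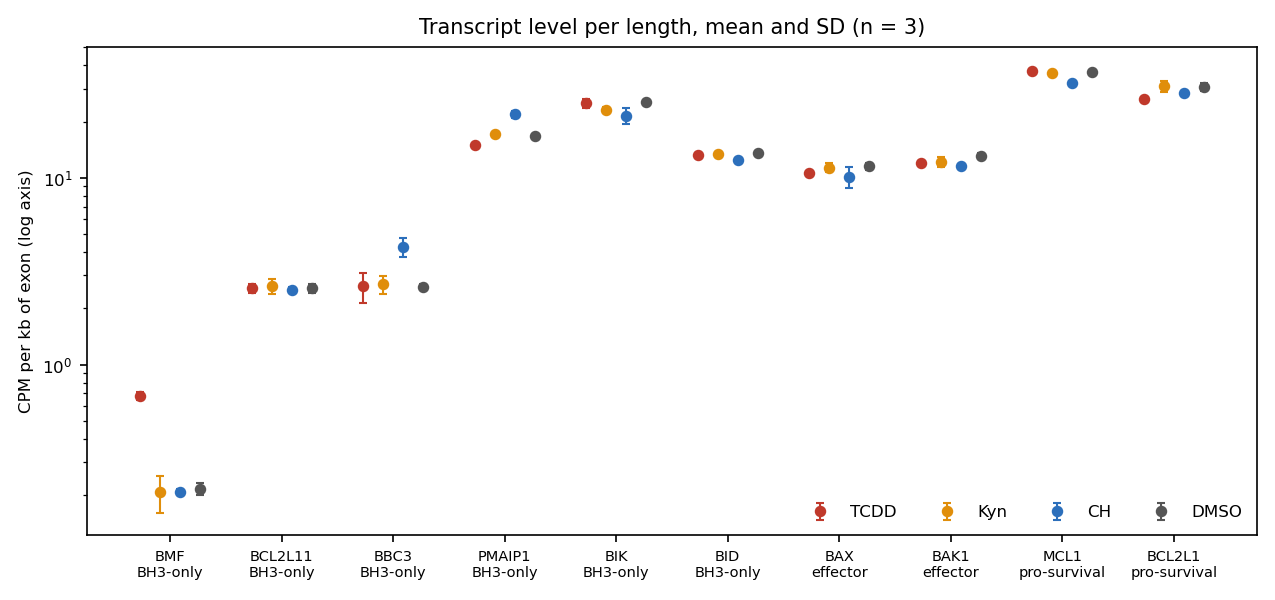
Mean level of each member in CPM per kb of exon (log axis) with SD (n = 3), in the TCDD, Kyn, CH and DMSO groups from left to right. BMF lies under 1 CPM per kb in all 4 groups, and MCL1 and BCL2L1 at 26.5 to 37.5 CPM per kb.

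The genes whose pattern over the 12 libraries was most like that of BMF were TIPARP, TPPP, NANOS1, GLI2, GNAI1 and KSR2. Likeness was the root mean square difference of log2 CPM after each gene's own mean was subtracted, computed for the 12111 genes that averaged 1 CPM or more, and these 6 had values of 0.212 to 0.348. TIPARP, a PARP family gene and known AHR target, came first (0.212), with 145 CPM with TCDD, 38.0 CPM with Kyn and 33.4 CPM with CH, against 44.0 CPM in DMSO. NANOS1, an RNA-binding translational regulator, had 39.6 CPM with TCDD, 19.5 CPM with Kyn and 13.7 CPM with CH, against 20.6 CPM in DMSO. GNAI1, an inhibitory G protein subunit, had 30.5 CPM with TCDD and 16.7 CPM in DMSO. The other 9 members differed from BMF by 0.683 (MCL1) to 0.884 (BBC3). The measure is a description over libraries that include the TCDD group for which BMF was chosen.

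**Figure D4:**
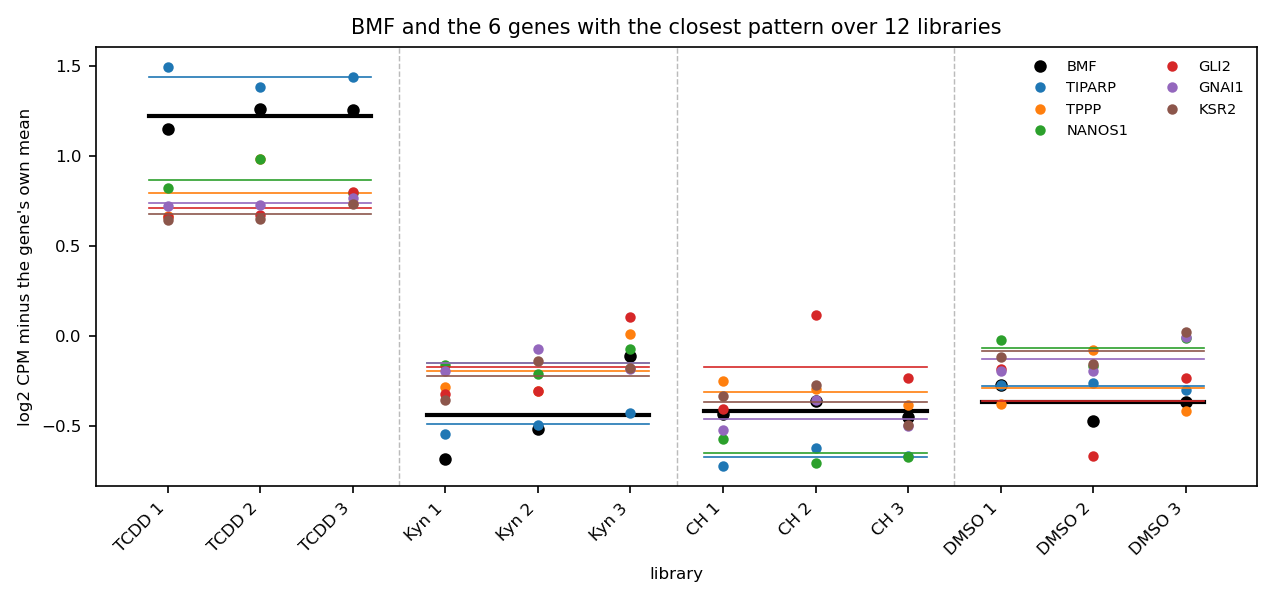
Log2 CPM minus the gene's own mean over 12 libraries (vertical axis) for BMF and the 6 genes of closest pattern, 1 point per library, with a horizontal line at the mean of each group. All 7 genes are highest in the 3 TCDD libraries, where BMF lies at 1.15 to 1.26.

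Of 13 other BCL2 family genes, 10 had enough reads to be tested, while HRK, BCL2A1 and BCL2L10 had 15, 8 and 3 reads in all 12 libraries together. With CH, 2 of the 10 rose and 2 fell, where 32.8% of all genes tested were called. BNIP3L, a mitophagy receptor, rose (log2 fold change 0.28, adjusted p = 3.65e-06), and so did BCL2L13 (0.20, adjusted p = 2.31e-04). BCL2L12 fell (-0.21, adjusted p = 2.46e-04), and BCL2L15 (-0.27, adjusted p = 0.0327) was lost in 4 of the 12 fits that omitted 1 library, with an adjusted p up to 0.239, and with all libraries under library totals and DESeq2 (up to 0.0570). With TCDD, BOK was lower (-0.21, adjusted p = 9.05e-03), a call that ended without DMSO library 1 (adjusted p = 0.0851). BCL2, the founding pro-survival gene, did not pass with CH (0.01, adjusted p = 0.979) or TCDD (-0.22, adjusted p = 0.448).

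Downstream of the family, 7 of 18 caspase and apoptosome genes were called with CH, 2 higher and 5 lower. Of all genes tested, 32.8% were called with CH and 11.7% with TCDD. CYCS, the gene of cytochrome c, fell (-0.22, adjusted p = 4.56e-06), as did CFLAR, which blocks caspase-8 (-0.26, adjusted p = 5.38e-05). CASP8 rose (0.17, adjusted p = 1.65e-03), as did its relative CASP10 (0.25, adjusted p = 3.74e-03). With TCDD 1 of the 18 was called, the adaptor FADD (-0.16, adjusted p = 0.0324), which was lost in 4 of the 12 fits that omitted 1 library (adjusted p up to 0.218). Of the genes of inhibitors of apoptosis, 5 of 7 were tested. With TCDD, BIRC3 (cIAP2) rose by 0.44 on the log2 scale (adjusted p = 3.38e-08) and BIRC6 by 0.25 (adjusted p = 4.25e-04). BIRC3 had 42.9, 41.7 and 43.8 CPM with TCDD, against 31.9, 30.8 and 32.1 CPM in DMSO. With CH, BIRC5 (survivin) fell (-0.19, adjusted p = 7.48e-05), and BIRC6 (-0.13, adjusted p = 0.0348) was lost in 5 of the 12 fits that omitted 1 library (adjusted p up to 0.152). With all libraries the BIRC6 call with CH was also lost with library totals, with the filter of at least 5 CPM and with DESeq2 (adjusted p up to 0.174).

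Among 9 death receptor and ligand genes, 2 rose, 2 fell and 5 did not pass with CH, and 0 passed with TCDD, where 1 had an unadjusted p under 0.05. The shares of all genes called were 32.8% with CH and 11.7% with TCDD. Of the TRAIL receptor genes listed, TNFRSF10D (-0.49, adjusted p = 2.02e-10) and TNFRSF10A (-0.29, adjusted p = 2.64e-05) fell with CH, and the others did not pass. TNFRSF1A, the TNF receptor gene, rose (0.24, adjusted p = 7.68e-06). TNF (1.66, adjusted p = 0.0220) had 8, 11 and 12 reads with CH, against 3, 1 and 6 in DMSO, and was lost in 4 of the 12 fits that omitted 1 library (adjusted p up to 0.115). It had no adjusted p with DESeq2, with the filter of at least 5 CPM or in the fit of only CH and DMSO.

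Proteins that tether, phosphorylate or degrade BCL2 family proteins formed a list of 15 genes, of which 2 rose and 4 fell with CH, while 3 rose and 1 fell with TCDD. Over all genes tested, 32.8% were called with CH and 11.7% with TCDD. HUWE1, a ubiquitin ligase for MCL1, was higher with TCDD (0.30, adjusted p = 1.03e-04) and with CH (0.18, adjusted p = 6.93e-03, but 0.0657 without CH library 2 and 0.105 with DESeq2). USP9X was also higher with TCDD (0.13, adjusted p = 0.0234). Its call was lost in 4 of the 12 fits that omitted 1 library (adjusted p up to 0.133). MYO5A and DYNLL2, which anchor BMF to actin, were called with TCDD at 0.19 (adjusted p = 9.23e-03) and -0.12 (adjusted p = 0.0239). The MYO5A call ended without TCDD library 3 or DMSO library 1 (adjusted p up to 0.106), and that of DYNLL2 in 4 of the 12 fits that omitted 1 library (up to 0.128). DYNLL1, the dynein light chain that tethers BIM, fell with CH (-0.20, adjusted p = 7.76e-05).

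Of 15 transcription regulators of BH3-only genes, 14 were tested, and 3 rose and 3 fell with CH, where 32.8% of all genes were called. ATF4, the main transcription factor of the integrated stress response, had 535, 514 and 521 CPM with CH, against 284, 280 and 260 CPM in DMSO (log2 fold change 0.93, adjusted p = 2.15e-21). DDIT3 (CHOP), which acts with ATF4, had 12.7, 10.7 and 11.7 CPM with CH, against 6.75, 4.67 and 5.95 CPM in DMSO (1.02, adjusted p = 1.90e-09). In both genes the CH libraries lay above all DMSO libraries. E2F1 (-0.33, adjusted p = 9.82e-07) and JUN (-0.34, adjusted p = 1.13e-06) fell. With TCDD 1 rose and 3 fell, where 11.7% of all genes were called. The called regulators included HIF1A (0.19, adjusted p = 1.42e-03), MYC (-0.20, adjusted p = 4.14e-04) and JUN (-0.17, adjusted p = 0.0163). The JUN call ended without TCDD library 1, TCDD library 3 or DMSO library 1 (adjusted p up to 0.123).

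Over the 6 lists, 29 of 71 tested genes were called with CH (40.8%), 11 higher and 18 lower, beside the 32.8% of all genes tested. Scaling by library totals alone gave 27, with 14 higher and 13 lower, where 4413 of 13619 genes were called. With TCDD 12 of the 71 were called (16.9%), 6 higher and 6 lower, beside 11.7% of all genes, 5.91% higher and 5.83% lower. That count was 7 without TCDD library 3, where 805 of 13819 genes were called over all. It was also 7 without DMSO library 1, where 851 of 13802 were. With Kyn 0 were called by edgeR and 0 by DESeq2, and 4 had an unadjusted p under 0.05. The shares of all genes, 32.8% and 11.7%, include genes of low count. With the filter of at least 5 CPM in 3 libraries, 28 listed genes were called with CH, beside 4161 of 10402 genes. With TCDD that filter gave 13 listed genes, beside 1618 of 10402. The filter also removes listed genes such as BCL2 and TNF, so neither count is out of 71.

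**Figure D5:**
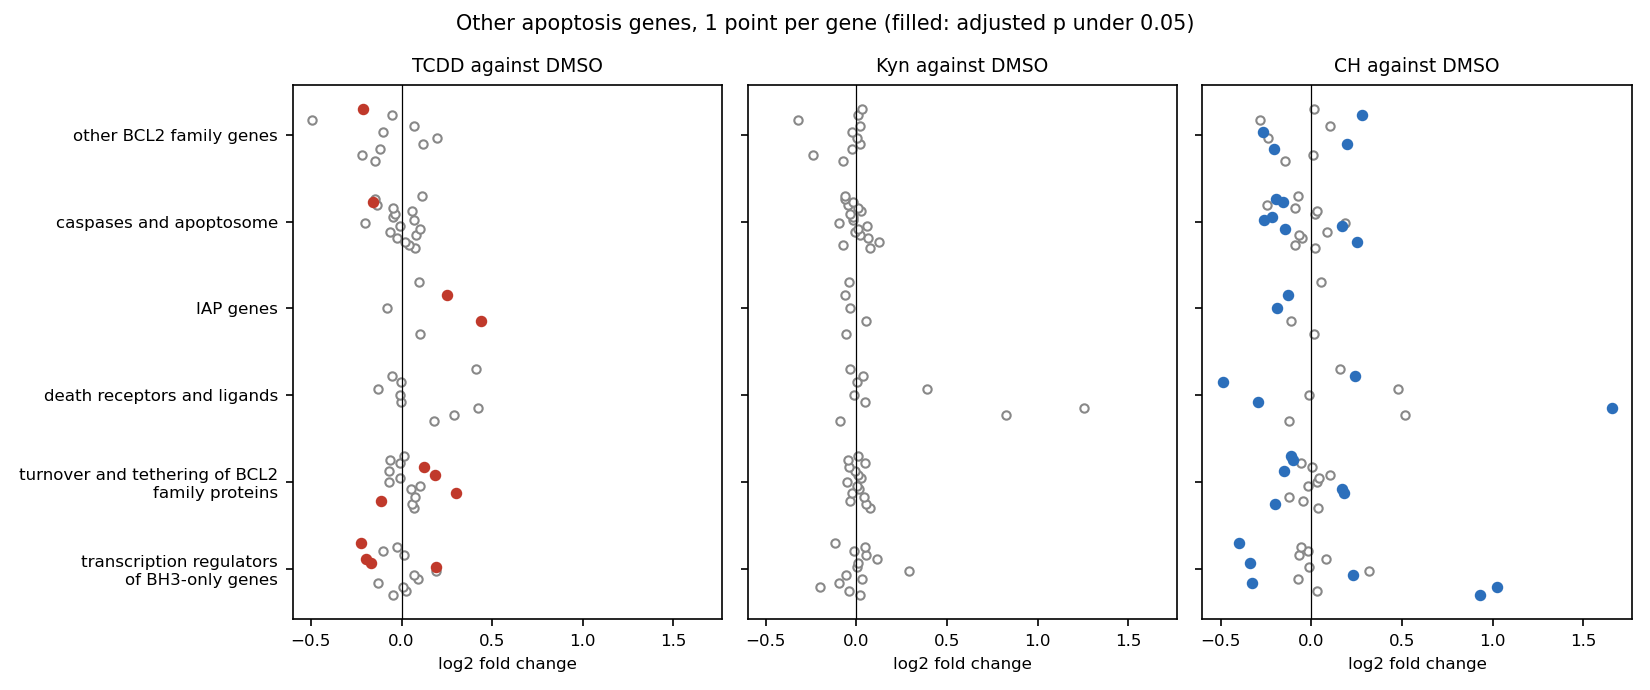
Log2 fold change against DMSO (horizontal axes) of the 71 tested genes of 6 apoptosis lists, 1 point per gene, with TCDD, Kyn and CH from left to right. Filled points had an adjusted p under 0.05 (12 with TCDD, 0 with Kyn and 29 with CH), and the points at the far right with CH include DDIT3 at 1.02 and TNF at 1.66.

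Some members share exon sequence with other genes. MIR4435-2HG covers 10.8% of the BCL2L11 exons on the opposite strand and fell with CH (-0.43, adjusted p = 5.71e-04), in the same comparison in which BCL2L11 did not pass. For BBC3, BAK1 and MCL1 the largest shared exon part was 2.51, 4.11 and 5.27% of the member's exons. Whether reads of these parts were counted for the member was not tested.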

How the data were processed

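Poly(A) RNA of 12 DLD1 libraries was analysed in 4 groups of 3, named by their labels. The authors deposited 1 table per library with unnormalized read counts for each gene symbol. Per the submitters' processing notes, reads were trimmed with Trim Galore, aligned to hg38 with STAR 2.7.2b, handled with SAMtools 1.9 and counted with HTSeq. The labels' protocol text names other versions in part and does not mention CH223191, and the strand setting is not given in the sources used here. The 5 HTSeq summary rows were left out of totals. Reads in no gene made up 7.30 to 9.33% of aligned reads. Depth was 21397703 to 28247146 reads counted on genes, which limits precision most for BMF. Columns of other series numbered 0.

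The members and gene lists were chosen with earlier results of these data known. The tests used edgeR 4.0.16 under R 4.3.3 (limma 3.58.1). Its filterByExpr (minimum count 10) kept 13619 of 26485 symbols, with TMM factors of 0.988 to 1.02. All 12 libraries entered 1 quasi-likelihood fit with a mean for every group, and the p-values of a comparison were adjusted over all its genes by Benjamini-Hochberg (threshold 0.05). Log2 CPM used a prior count of 2. Confidence intervals of fold changes cover 95%. All 10 members are named, with up to 4 called genes of smallest p from each of 6 apoptosis lists, the 6 genes most like BMF, CYP1A1, AHR and genes overlapping or adjoining a member. A further list and 1 regulator are not reported here. BCL2, HRK, BCL2A1 and BCL2L10 were named after their values were seen. Positions and exon lengths came from GENCODE 44, which may differ from the authors' annotation, and promoters from RefSeq.

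Within groups the variance between libraries was 1.74 to 4.55 times Poisson noise, so none was counted as a duplicate. The procedure was tested on simulated data. Results were recomputed with DESeq2 1.42.0, with a replicate block, with RLE factors or library totals in place of TMM, without the low-count filter or with one of at least 5 CPM in 3 libraries, in fits of only 2 groups, and without each library in turn. Levels per length were also taken over the longest transcript.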

Additional observations from a re-analysis of the deposited data

How the results depend on the processing

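Of 1116 alternative values of single members, 1076 stayed on their side of the threshold or, where untested, moved by less than the spread between libraries. The 1116 include many results that were not called or not tested with all libraries and so had no call to lose. A further 40 kept the direction but no longer passed, and 0 called values changed sign. All 40 fell among the 8 calls of CH against DMSO and the 6 of CH against Kyn. For the family with CH against DMSO, 8 calls became 6 with library totals, 7 with DESeq2, 7 with at least 5 CPM and 4 to 8 with a library left out. Over all genes these fits called 4413 and 3803 of 13619, 4161 of 10402, and 3510 to 4743. With CH against Kyn, 6 became 3 with library totals, 4 with DESeq2, 5 without the low-count filter and 3 to 6 with a library left out. Over all genes these fits called 4513 and 3901 of 13619, 4421 of 20170, and 3577 to 4559. The cause was not tested. With Kyn against DMSO the family count was 0 in every alternative run, where 26 to 65 genes were called over all genes. In that comparison the counts with DESeq2 and with at least 5 CPM do not cover BMF, which had no adjusted p there. The list counts ran from 7 to 14 with TCDD and from 22 to 30 with CH with a library left out, and that with Kyn was 0. Calls over all genes in these fits ran from 805 to 1912 with TCDD and from 3510 to 4743 with CH. BMF with TCDD against DMSO had a log2 fold change of 1.65 to 1.66 under the other alternatives and 1.60 to 1.70 with a library left out, but had no value with the filter of at least 5 CPM, which removed it. Scaling by library totals moved the median log2 fold change of all genes by at most 0.03.

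Same-numbered libraries did not deviate together: the 18 same-numbered pairs had correlations of deviations of -0.06 to 0.04, and the 36 differently numbered ones -0.05 to 0.08. With the number as a replicate block, the family counts were 8 with CH against DMSO and 5 with CH against Kyn, where BID was lost (adjusted p = 0.0555), and 0 with Kyn against DMSO, and BMF with TCDD stayed at 1.65. That fit called 4366, 4386 and 38 of 13619 genes in the same order of comparisons.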
